A study of Mus musculus with 14 samples.

Results

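The transcriptome of embryonic retinal microglia was compared with that of the whole retina of the same age, embryonic day 16.5 (e16.5), across all genes. The 6 libraries of that age were taken out of 14 in the series by their labels, 3 of microglia and 3 of whole retina, with no choice made on measured values. Microglia came from C57BL/6 mice carrying green fluorescent protein (GFP) at the Cx3cr1 locus, and were sorted as cells positive for GFP and for CD45 and negative for CCR2. Each microglia library pooled 1 to 2 litters, and the labels call the 3 of them biological replicates. Whole retina came from wild-type C57BL/6 mice, with the central retina taken at e16.5, and its libraries carry only replicate numbers, so their spread may be technical. Microglial RNA was extracted with a low-input kit and amplified with NuGEN Ovation RNA-seq System v2, whereas retinal RNA was extracted with a larger-scale kit, and the sources used here name no kit for its libraries. The reporter allele, dissociation, red cell lysis, sorting, RNA kit and amplification therefore differ together with the tissue and cannot be told apart from it in any value below. Of 20902 genes in the table, 16140 had enough counts to be tested.

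Microglia are the resident macrophages of the central nervous system. They descend from progenitors of the yolk sac, enter the retina in the embryo, and depend on signals through the receptor CSF1R. In the developing retina they take up dying neurons and progenitors and associate with growing vessels. At e16.5 the mouse retina consists mostly of dividing progenitors and newly born ganglion, amacrine, horizontal and cone cells, and microglia are a small part of it. Whole retina therefore contains the sorted population as a minor component, and every difference below is one between an isolated cell type and a mixture.

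The microglia libraries held 11348430 to 17160439 counts and the retina libraries 20469100 to 21981036. Correlations of log2 CPM (counts scaled to library size, with TMM factors over the 6 libraries) were 0.898 to 0.914 between microglia libraries, 0.993 to 0.994 between retina libraries and 0.484 to 0.528 between the groups. The median SD of log2 CPM was 0.494 in microglia and 0.0828 in retina, over tested genes with at least 10 CPM. The markers that define microglia (Tmem119, P2ry12, Sall1, Csf1r, Cx3cr1) were high in all 3 microglia libraries, and those of retinal progenitors and ganglion cells (Rax, Sox2, Pou4f2, Isl1, Sncg) in all 3 retina libraries. Rpe65, which marks the pigment epithelium, was at 0 counts in all 6 libraries, but other genes of its list were present. Of 9 tested, Tyrp1 and Pmel were lower in microglia in the test below, 2 were higher and 5 were not called. The list summed to 9.01 to 37.3 CPM in retina and 51.9 to 76.9 CPM in microglia.

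Microglia and whole retina differed in most of the genes tested. At an adjusted p under 0.05 (edgeR quasi-likelihood test, Benjamini-Hochberg adjustment), 10206 of 16140 genes were called, or 63.2%. Of these, 5346 were higher in microglia (33.1% of genes tested) and 4860 were lower (30.1%). The median log2 fold change, microglia minus retina, was 3.19 among the higher genes and -2.65 among the lower genes, against -0.13 over all genes tested. Differences past 8-fold were found for 2812 higher and 2084 lower genes, and past 64-fold for 937 and 627. For 12270 genes, or 76% of those tested, the range of the 3 microglia libraries did not touch that of the 3 retina libraries. These shares are the background for the counts of list members in this comparison: a list called at 33.1% higher or 30.1% lower does not stand apart from all genes. The age contrasts have their own shares, given with them.

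The authors' deposited table gives an adjusted p for 20132 genes in the same comparison, of which 10129 lie under 0.05. Of the genes called here, 8131 were called there with the same sign and 19 with the opposite sign, and 2056 were not called there.

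**Figure D1:**
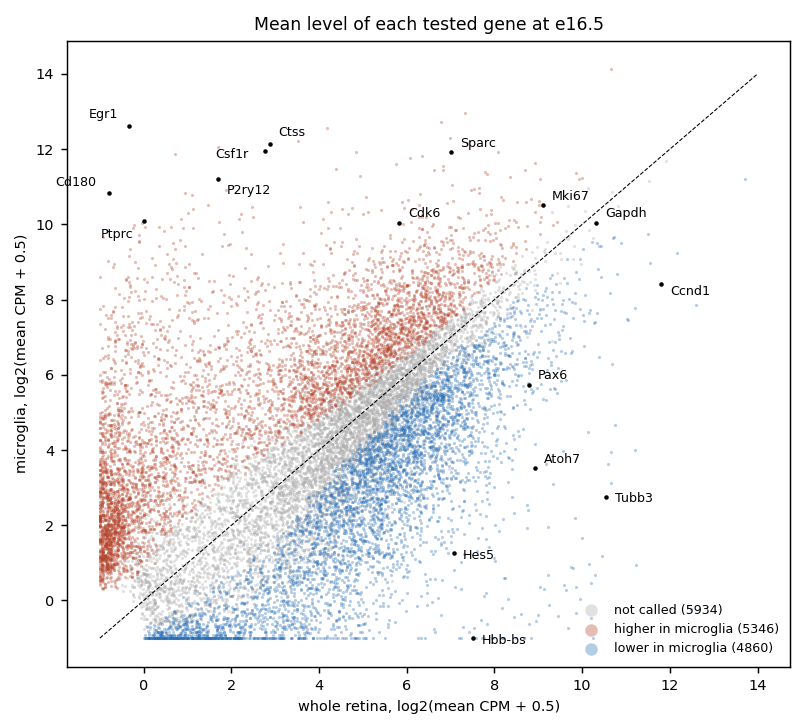
Each point is 1 tested gene, with the mean of 3 retina libraries on the x axis and of 3 microglia libraries on the y axis, both as log2(CPM + 0.5). Genes called higher in microglia (5346) lie above the diagonal, genes called lower (4860) below it, and both reach far from it, with genes not called in grey.

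The genes of microglial identity stood far above their level in whole retina, without exception. All 20 tested members of the homeostatic list were higher, with a median log2 fold change of 7.81, and their summed level was 21627 to 28971 CPM in microglia and 678 to 750.2 CPM in retina. In bulk libraries like these, fewer cells of a type and less RNA per cell cannot be told apart. Csf1r, the receptor for CSF1 and IL-34, measured 5338, 2537 and 4093 CPM in the 3 microglia libraries and 6.82, 5.69 and 6.52 CPM in the 3 retina libraries (log2 fold change 9.30 ± 0.40 (SE), adjusted p = 7.67e-06). Every microglia library lay above every retina library, and the level in retina was 0.159% of that in microglia.

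P2ry12, the ADP receptor that guides microglial processes to injured sites, measured 2629.9, 1832 and 2577 CPM in microglia and 2.83, 2.24 and 3.07 CPM in retina (log2 fold change 9.75 ± 0.30 (SE), adjusted p = 3.69e-06). Cx3cr1, the fractalkine receptor, measured 934, 1234 and 1584 CPM and 4.16, 3.76 and 4.53 CPM (log2 fold change 8.23 ± 0.30 (SE), adjusted p = 5.19e-06), in cells that carry the reporter at this locus. Tmem119, a surface protein used to tell microglia from other macrophages, measured 524, 257 and 465 CPM and 0.857, 1.04 and 0.914 CPM (log2 fold change 8.78 ± 0.39 (SE), adjusted p = 8.32e-06). For all 3 genes the groups did not overlap, and the microglia libraries differed from each other far less than from any retina library.

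Sall1, a transcription factor of microglia among macrophages that is also active in neural progenitors, measured 401, 405 and 439 CPM in microglia against 1.11, 2.24 and 1.95 CPM in retina (log2 7.87). Siglech (log2 9.78), Fcrls (8.59) and P2ry13 (9.98) differed as much. The smallest differences on the list were those of Golm1 (log2 2.14), Cst3 (2.64), which encodes the secreted protease inhibitor cystatin C, and Tgfbr1 (3.85), genes that the retina also expressed.

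Compared per length, the protein-coding genes with the highest mean level in microglia among those at least 8-fold higher included Pabpc1, B2m, Ctss, Wasf2, Sparc, Egr1 and Epb41l2. Pabpc1, which encodes a poly(A)-binding protein, reached 4539.7 ± 662 FPKM (fragments scaled by transcript length and library size, mean ± SD, n = 3) against 113 ± 7.06 in retina. B2m, the light chain of MHC class I, reached 4147 ± 1425 FPKM against 33.6 ± 2.003, and Ctss, the lysosomal protease cathepsin S, 3648 ± 755 against 6.23 ± 0.473. The Wasf2 value is uncertain, since the small RNA genes Gm24636 and, on the same strand, Mir7017 lie within the gene. Sparc, a secreted matrix protein, reached 2011 ± 539.6 FPKM against 71.9 ± 7.63. The unplaced gene models LT629148.2 and BX890553.4 stood at 5997 ± 1697 and 3772 ± 1630.4 FPKM in microglia, but at only 44.8 ± 12.8 and 26.9 ± 11.8 CPM, since FPKM divides by a short length. Among well-expressed genes that still had a measurable level in retina, the largest differences included those of Itgam (log2 11.70), Rasgrp3 (10.88), Mpeg1 (10.60), Cd53 (10.29), Zfp36 (10.07), P2ry13 (9.98) and Lair1 (9.89). Mpeg1, which encodes the pore-forming protein perforin-2 of macrophages, measured 3781, 3719.6 and 5228 CPM in microglia and 2.44, 2.64 and 3.11 CPM in retina.

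Transcription factors of the myeloid lineage followed the same direction. Of 23 tested, 21 were higher, 1 was lower and 1 was not called, with a median log2 fold change of 6.69. Spi1, which encodes PU.1, the factor that macrophages require, measured 91.8, 88.8 and 72.1 CPM in microglia and 0.343, 0.3604 and 0.5399 CPM in retina (log2 fold change 7.64 ± 0.34 (SE), adjusted p = 8.09e-06). Ikzf1, which encodes the zinc finger factor Ikaros, measured 643, 919 and 956 CPM against 0.3001, 0.4005 and 0.581 CPM (log2 fold change 10.91 ± 0.37 (SE), adjusted p = 4.1e-06). Neither gene's groups overlapped, and the microglia libraries of Spi1 were the closer together. Runx1 (log2 8.19), Irf8 (7.33), Mef2c (9.75) and Klf2 (9.54), as well as the blood lineage factor gene Tal1 (8.62), were higher too. The liver X receptor gene Nr1h3 was not called (log2 2.48, adjusted p = 0.287).

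Myb was the 1 factor lower in microglia, and 2 were lower without microglia library 2. It encodes a regulator of definitive haematopoietic progenitors, and is not required for yolk sac macrophages. Its level was 53.9, 50.6 and 84.96 CPM in the microglia libraries and 274, 246 and 250.1 CPM in the retina libraries (log2 fold change -2.02 ± 0.24 (SE), adjusted p = 0.000461). Every microglia library lay below every retina library, at a level that was far from 0.

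Receptor-proximal signalling genes of leukocytes formed one of the most uniform groups. All 19 tested genes of ITAM (immunoreceptor tyrosine-based activation motif) and tyrosine kinase signalling were higher, with a median log2 fold change of 8.12, and all 23 of the leukocyte cytoskeleton and adhesion list, with a median of 7.91. Ptprc, which encodes the sorted surface marker CD45, measured 898, 1365 and 978 CPM in microglia and 0.557, 0.481 and 0.457 CPM in retina (log2 fold change 11.06 ± 0.31 (SE), adjusted p = 3.43e-06). Since cells were gated on this protein and on the Cx3cr1 reporter, the differences of Ptprc and Cx3cr1 check the sort and are no finding. Other leukocyte genes can be expected to be higher in cells sorted in this way, so their direction is no independent finding either. Tyrobp, the adaptor DAP12 that couples TREM2 and other receptors to kinases, measured 150.0, 238 and 329 CPM against 1.71, 1.52 and 1.41 CPM (log2 7.26), and Fcer1g, the adaptor of Fc receptors, 325, 635 and 582 CPM against 0.514, 0.2803 and 0.332 CPM (10.40). The kinase genes Syk (log2 6.45), Btk (9.47) and Lyn (7.68), the phosphoinositide 3-kinase gene Pik3cg (10.41), the phosphatase gene Inpp5d (8.73) and the guanine nucleotide exchange factor gene Vav1 (7.71) were higher, with no overlap between groups. In the second list, the actin regulators Lcp1 (log2 9.35), Hcls1 (6.49) and Dock8 (10.90) stood beside the integrin genes Itgam (11.70) and Itgb2 (9.78), while Itgb1, an integrin chain that most cells use, differed least (1.09).

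The promoters of these genes are shown because the members moved together and because their lists held one sequence more often than genes at large. The sequence is AGGAAGT, a core that PU.1 and other ETS factors bind, searched on both strands (ACTTCCT on the other) from 250 bases before to 50 bases after the transcription start in RefSeq promoters of GRCm38.p6. It was found in a promoter of 10.7% of the 27025 genes searched. Among tested genes with a promoter in that table, it was found for 13.3% of those higher in microglia (492 of 3712), 7.96% of those lower (270 of 3391) and 8.99% of those not called, and for 17.1% of those at least 8-fold higher and 7.08% of those at least 8-fold lower. It was found for 10 of 17 ITAM and kinase signalling genes (58.8%), 8 of 18 leukocyte cytoskeleton genes (44.4%), 4 of 14 homeostatic genes (28.6%), 2 of 18 myeloid transcription factor genes (11.1%), 1 of 9 axon genes (11.1%) and 0 of 12 retinal progenitor genes. A match describes the letters in the window and says nothing on binding in these cells.

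The 120 bases before the start are given 5′ to 3′ on the gene's own strand, with matches in capitals, for 5 leukocyte signalling and cytoskeleton genes that hold the sequence in that stretch, and for the progenitor gene Sox2, which was lower in microglia and holds none in its promoter window. They lie at chr1:138175306-138175425, minus strand (Ptprc, matches beginning at positions -113 and -58 from the start), chr17:57278980-57279099, plus strand (Vav1, -10), chr1:87620192-87620311, plus strand (Inpp5d, -19), chr12:32208660-32208779, minus strand (Pik3cg, -25), chr16:36934863-36934982, plus strand (Hcls1, -59) and chr3:34649875-34649994, plus strand (Sox2).
Ptprc: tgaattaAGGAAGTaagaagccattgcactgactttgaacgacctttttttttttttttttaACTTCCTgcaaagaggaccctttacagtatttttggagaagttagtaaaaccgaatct
Vav1: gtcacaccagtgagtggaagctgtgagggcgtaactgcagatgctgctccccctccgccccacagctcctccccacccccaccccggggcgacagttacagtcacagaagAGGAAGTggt
Inpp5d: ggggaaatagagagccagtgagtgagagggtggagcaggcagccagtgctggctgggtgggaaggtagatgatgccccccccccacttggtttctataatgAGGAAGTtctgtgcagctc
Pik3cg: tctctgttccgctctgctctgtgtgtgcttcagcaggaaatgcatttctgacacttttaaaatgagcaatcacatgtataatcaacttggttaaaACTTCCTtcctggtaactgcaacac
Hcls1: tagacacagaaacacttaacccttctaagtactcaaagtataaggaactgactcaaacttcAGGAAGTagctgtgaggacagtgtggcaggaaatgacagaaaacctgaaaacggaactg
Sox2: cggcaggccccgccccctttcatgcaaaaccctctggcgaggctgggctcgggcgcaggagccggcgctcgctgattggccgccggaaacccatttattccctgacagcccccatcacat

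In Vav1, Inpp5d and Pik3cg the match began close to the start, in Hcls1 at -59, and Ptprc held one on each strand. The log2 fold changes of these 5 genes were 7.71 (Vav1), 8.73 (Inpp5d), 10.41 (Pik3cg), 6.49 (Hcls1) and 11.06 (Ptprc), and that of Sox2 was -5.72. The genes shown were chosen by their list and by the match, so these values do not link match and level. Ptprc and Pik3cg have 2 promoters each in the RefSeq table, of which 1 is shown.

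**Figure D2:**
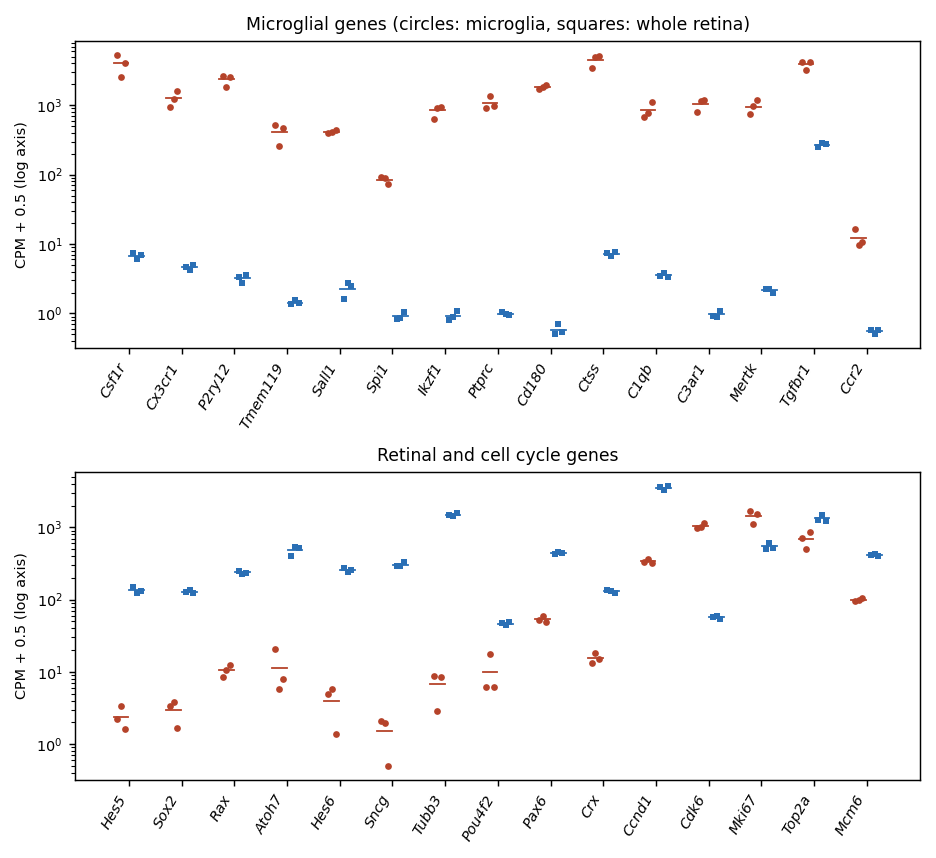
CPM + 0.5 on a log axis in each of the 3 microglia libraries (circles) and 3 retina libraries (squares), with bars at the means, for 15 genes of microglia (top) and 15 genes of the retina and the cell cycle (bottom). Every microglia point of the top panel lies above every retina point of its gene, and in the bottom panel Cdk6 and Mki67 are higher in microglia and the other genes lower.

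Receptors by which microglia sense microbes, antibodies, neighbours and nucleotides were higher nearly throughout. All 22 tested pattern recognition and Fc receptor genes were higher (median log2 8.37), as were 16 of 18 inhibitory and lipid sensing receptors (8.39, or 8.18 with members at 0 counts set to their bound) and 12 of 14 purine and chemoattractant receptors (9.14). Cd180, a Toll-like receptor homologue without a signalling domain, measured 1740.0, 1807 and 1933 CPM in microglia and 0, 0.2002 and 0.0415 CPM in retina (log2 fold change 14.32 ± 0.61 (SE), adjusted p = 7.57e-06). It had one of the largest differences of any named gene, and its microglia libraries were close together. The retina values rest on few counts, near the floor of 0.0414 CPM, so the size of this fold is uncertain. Folds of genes below with retina values this low share the limit. Tlr7 (log2 10.03) and Tlr13 (10.44), sensors of RNA, and Nlrp3 (10.43), the inflammasome sensor, were also higher.

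Among inhibitory receptors, Cd33, a sialic acid binding lectin, measured 1107, 1057 and 894 CPM in microglia and 0.472, 0.3204 and 0.291 CPM in retina (log2 11.44), and Lair1, a collagen receptor, 1016, 963 and 971 CPM and 0.857, 1.32 and 0.914 CPM (9.89). Lilrb4a was at 0 counts in retina and at 17.7, 63.7 and 4.23 CPM in microglia, at least 689-fold higher against a floor of 3 counts over the group. Cd33 and Lair1 varied little between microglia libraries, Lilrb4a widely. Sirpa, the receptor for the inhibitory signal CD47, was higher (log2 5.01), and so was its ligand gene Cd47 (3.49).

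The complement receptor genes C3ar1 (807, 1135 and 1199.6 CPM against 0.429, 0.4005 and 0.581 CPM, log2 11.10) and C5ar1 (178, 145 and 256 CPM against 0, 0.04005 and 0.125 CPM, log2 11.60) had the largest differences among chemoattractant receptors. Ccr2, a receptor of monocytes and the protein by which cells were sorted out, was at 15.9, 9.35 and 10.3 CPM in microglia and 0.0857, 0 and 0.0831 CPM in retina (log2 7.57), a level that the gate bears on. Cxcr4, the CXCL12 receptor, was the 1 lower member (2 were lower without microglia library 3, with total counts and with limma on FPKM), at 12.7, 21.8 and 14.1 CPM against 118, 82.8 and 101 CPM (log2 -2.63). Microglia and retina libraries did not overlap for any of these 4 genes.

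Complement genes were higher in microglia, with differences of unlike size. Of 16 tested, 12 were higher and 1 was lower (3 without microglia library 3), with a median log2 fold change of 6.56, which was 4.48 without microglia library 2, 5.13 without retina library 1 and 4.97 without retina library 2. C1qb measured 687, 762 and 1116 CPM in microglia and 3.001, 3.32 and 2.87 CPM in retina (log2 8.12), and C1qc 416, 671 and 993 CPM and 3.22, 3.04 and 3.57 CPM (7.72), while C1qa, the remaining chain of the C1q complex, measured 101, 17.4 and 27.98 CPM and 3.86, 4.005 and 3.904 CPM (3.64). The C1qa level was therefore lower than those of its partner chains in every microglia library, and per length too, at 54.7 ± 50.9 FPKM against 905 ± 248 for C1qb and 646 ± 273 for C1qc (mean ± SD, n = 3). Itgam, the alpha chain of complement receptor 3, measured 2429, 4547 and 4369.7 CPM against 1.07, 1.52 and 0.789 CPM (log2 11.70), and its partner chain Itgb2 211, 227 and 307 CPM against 0.257, 0.2803 and 0.291 CPM (9.78).

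C3, the central component, stood at 6.63, 44.2 and 3.57 CPM in microglia and 0.943, 1.12 and 1.62 CPM in retina (log2 3.88, adjusted p = 0.0148). Its second microglia library was far above the others, and the call was lost without retina library 1 (adjusted p = 0.0609) or 2 (0.0629). Cd55, which removes convertases from cell surfaces, was lower (log2 -2.89).

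In the list of apoptotic cell recognition and engulfment, 14 of 21 genes were higher, 3 were lower and 4 were not called, with a median log2 fold change of 2.89. Mertk, a receptor for phosphatidylserine bridged by GAS6 and protein S, measured 742, 959.8 and 1171 CPM in microglia and 1.76, 1.76 and 1.495 CPM in retina (log2 fold change 9.16 ± 0.29 (SE), adjusted p = 3.74e-06). The related receptor gene Axl was higher by less (259, 228 and 181 CPM against 30.8, 30.8 and 28.6 CPM, log2 2.89), and Tyro3, also of this family, measured 0.269, 14.3 and 0.437 CPM against 35.8, 37.5 and 39.7 CPM and was not called (log2 -2.91, adjusted p = 0.0956). Without microglia library 2, in which it was highest, Tyro3 was lower in microglia (log2 -6.81, adjusted p = 0.000134). With that library kept, Tyro3 was also called lower with limma-voom (adjusted p = 0.00578), limma on FPKM (0.0104) and the replicate block (0.0214). The bridging ligand genes Gas6 (log2 2.90) and Pros1 (3.81) were higher, whereas Mfge8, another bridging molecule, was lower, at 5.29, 1.69 and 4.44 CPM against 70.6, 60.6 and 61.5 CPM (-4.07). Gulp1, an engulfment adaptor (log2 -4.18), and Adgrb1, a phosphatidylserine receptor (-3.35), were lower as well. The scavenger receptor gene Stab1 (log2 8.12), the integrin gene Itgb3 (8.24) and the Rac pathway genes Dock2 (9.25) and Rac2 (8.66) were higher.

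Genes of the degradative compartment were higher with one exception. Of 23 lysosomal proteases, glycosidases and membrane proteins, 22 were higher (median log2 3.51), and Glb1, the beta-galactosidase, was not called (log2 0.66, adjusted p = 0.149). Their summed level was 22714 to 28160.0 CPM in microglia and 1275 to 1338 CPM in retina. Ctss, the cathepsin of antigen presenting cells, measured 3488, 4993 and 5157 CPM in microglia and 6.94, 6.21 and 7.27 CPM in retina (log2 fold change 9.38 ± 0.29 (SE), adjusted p = 3.68e-06). Laptm5, a lysosomal membrane protein of leukocytes (log2 9.67), and Cd68 (8.74), of macrophages, differed by a like amount. The ubiquitous cathepsins differed by less: Ctsb measured 2655, 2539.6 and 3135 CPM against 115, 107 and 116 CPM (log2 4.62) and Ctsd 1880.5, 2040.3 and 2468 CPM against 139, 124 and 128 CPM (4.03). Grn, which encodes progranulin, measured 1321, 1263 and 1302 CPM against 20.4, 16.1 and 20.1 CPM (log2 6.10), and its microglia libraries were close together.

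The series title concerns a state resembling disease-associated microglia. In e16.5 microglia, 21 of 23 tested genes of this state were above whole retina, 1 was lower and 1 was not called, with a median log2 fold change of 4.19. The homeostatic list stood further above retina, with a median of 7.81. A comparison with whole retina cannot tell this state from microglial identity, and whether these cells were in it was not tested. Apoe, the lipid carrier, measured 388, 400.4 and 619.6 CPM in microglia and 45.6, 44.7 and 49.2 CPM in retina (log2 fold change 3.33 ± 0.24 (SE), adjusted p = 5.12e-05). Trem2, the lipid sensing receptor of this state, measured 79.8, 158 and 109 CPM against 0.686, 0.681 and 0.581 CPM (log2 7.46), and Clec7a, a beta-glucan receptor, 59.5, 118 and 133 CPM against 0.472, 0.2002 and 0.415 CPM (8.14). Neither gene's groups overlapped. Itgax, which encodes CD11c, measured 46.1, 236 and 84.8 CPM against 0.0857, 0.1201 and 0 CPM (log2 10.65), and Spp1, which encodes osteopontin, 16.3, 11.5 and 48.9 CPM against 1.07, 0.1201 and 0.166 CPM (5.81). Igf1 overlapped between the groups, at 27.9, 44.9 and 60.1 CPM and 34.1, 37.5 and 36.9 CPM (log2 0.29, adjusted p = 0.44), and its sign turned when single settings or libraries changed. The lipid binding protein gene Fabp5 was lower, at 11.7, 43.8 and 15.01 CPM against 201, 209.8 and 223 CPM (log2 -3.17). Lgals3 and Cst7 had too few counts to be tested.

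Class I genes of antigen presentation were far above retina, and the class II chains were low in both groups. Of 14 tested genes of antigen presentation, 12 were higher and 2 were not called (median log2 6.34). H2-K1, a class I heavy chain, measured 109.8, 757 and 222 CPM in microglia and 3.64, 1.201 and 2.74 CPM in retina (log2 7.16), and H2-D1 137, 443 and 243 CPM against 14.96, 9.93 and 14.9 CPM (4.37). Both were highest in the second microglia library. H2-Aa, a class II chain, was at 0 counts in all 6 libraries, and H2-Ab1, at 4.02 ± 1.56 CPM against 3.09 ± 0.408 CPM (mean ± SD, n = 3), was not called in the edgeR test (log2 0.38, adjusted p = 0.51), while Cd74, the invariant chain, measured 11.1, 56.1 and 15.2 CPM against 0.129, 0.1602 and 0.0415 CPM (7.87). The costimulatory gene Cd86 measured 171, 178 and 213 CPM against 0.171, 0.2803 and 0.208 CPM (log2 9.69).

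Of 16 tested genes of the type I interferon response, 15 were higher, and Ifit2 was not called (log2 1.30, adjusted p = 0.206). Their median log2 fold change was 5.04, and 4.21 without microglia library 2. Mx2 was at 17.5, 39.5 and 20.6 CPM in microglia and at 0 counts in retina, at least 624-fold higher. Trim30a measured 156, 127 and 293 CPM against 0.214, 0 and 0.0831 CPM (log2 10.85). Microglia library 2 held most of several other members: Rsad2, an antiviral enzyme, measured 2.15, 58.5 and 1.46 CPM, Ifit3 4.12, 31.5 and 1.68 CPM and Oasl2 24.9, 89.9 and 0.801 CPM. The Oasl2 call (log2 3.87, adjusted p = 0.0389) was lost without any 1 library other than microglia library 3, and with total counts, limma-voom, limma on FPKM or the replicate block. The Rsad2 call (log2 6.81) was lost without retina library 1 or 3 (adjusted p = 0.0521 and 0.0543) and with limma on FPKM.

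Most chemokine and cytokine genes were higher in microglia, and the lower ones included neuronal and stromal ligands. Of 20 tested, 15 were higher in microglia and 4 were lower (median log2 7.80, and 6.85 without microglia library 2). Ccl3 measured 171, 765 and 556 CPM in microglia and 0.129, 0.1201 and 0.125 CPM in retina (log2 11.89), and Il1a, an interleukin-1, 305, 836 and 814 CPM and 0.3001, 0.441 and 0.166 CPM (11.04). Ccl2 was at 15.9, 41.97 and 30.5 CPM against 0 counts in retina, at least 711-fold higher. For all 3 the first microglia library was the lowest. Il1b measured 4.48, 143 and 11.002 CPM in microglia, nearly all of it in the second library, and 0, 0.1201 and 0.0415 CPM in retina (log2 9.74). Tnf measured 17.8, 78.5 and 38.5 CPM in microglia and had 1 count in all of retina, so no fold is given. Tgfb1 was higher (78.7, 80.7 and 119.8 CPM against 0.343, 0.1602 and 0.332 CPM, log2 8.36), whereas its relatives Tgfb2 (log2 -1.50) and Tgfb3 (-2.96) and the chemokine genes Cxcl12 (-2.50) and Cx3cl1 were lower. The Tgfb2 call was lost with a gene length offset (log2 -0.52, adjusted p = 0.602), with limma on FPKM and in the fit over all 14 libraries, and those of Tgfb3 and Cxcl12 in the 14-library fit.

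**Figure D3:**
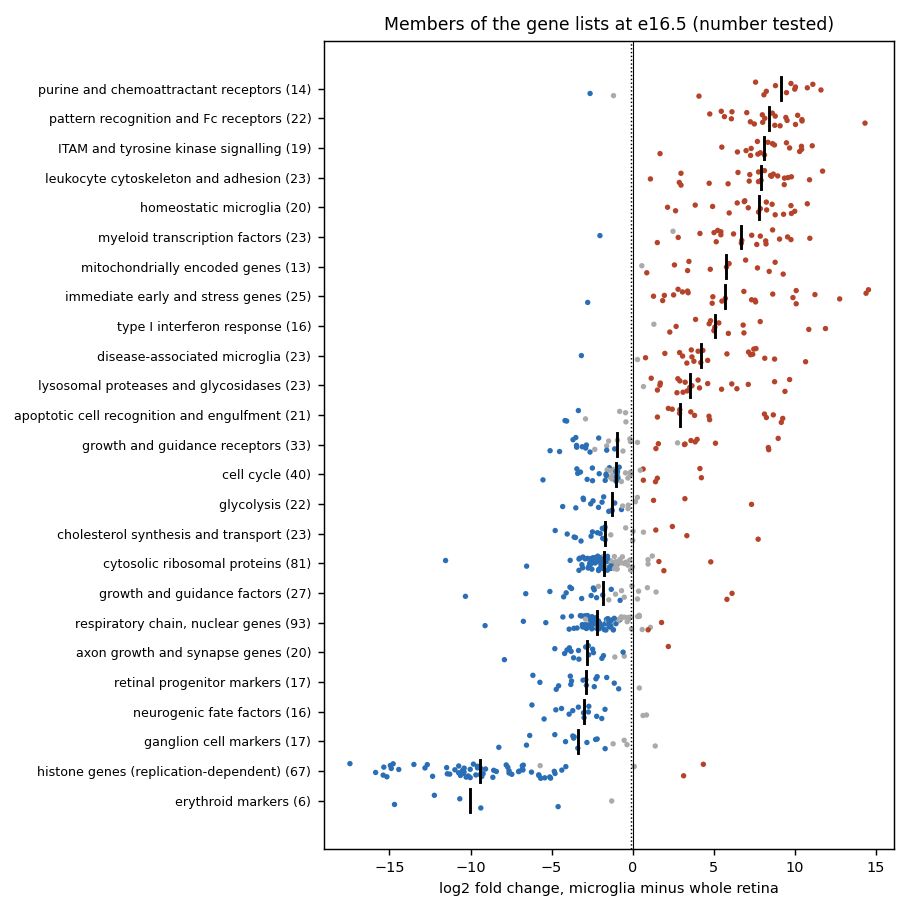
Each point is 1 tested gene of the list named on the y axis, placed by its log2 fold change, microglia minus retina, on the x axis, coloured where it was called higher (red) or lower (blue) and grey where not, with black bars at list medians and a dotted line at the median of all genes tested, -0.13. Leukocyte, lysosomal and immediate early lists lie to the right of it, and retinal, ribosomal protein, respiratory chain and histone lists to the left.

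Ligand and receptor genes were read in 26 pairs, each member with its own test. In 10 pairs both genes were higher in microglia, among them Csf1 and Csf1r, Tgfb1 and Tgfbr1, Gas6 and Axl, Pros1 and Mertk, Cd47 and Sirpa, and Icam1 and Itgb2. Csf1 measured 50.2, 77.2 and 41.3 CPM in microglia and 6.69, 7.09 and 6.27 CPM in retina (log2 3.07). Il34, the other ligand of CSF1R, was at 0.0896, 1.601 and 1.17 CPM in microglia and at 0 counts in all retina libraries, and had too few counts to be tested. Both genes were thus low in whole retina at this age, and Igf1 with Igf1r and Shh with Ptch1 were pairs in which neither gene was called. Without microglia library 1, however, Shh (log2 -2.49, adjusted p = 0.00573) and Ptch1 (-0.59, adjusted p = 0.0142) were called lower, as both were with limma on FPKM and Shh with limma-voom.

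In 4 pairs the ligand gene was lower and the receptor gene higher in microglia. Cx3cl1, the membrane-bound ligand of CX3CR1 made by neurons, was at 2.701, 2.16 and 2.87 CPM in retina and at 0 counts in microglia, at least 31.6-fold lower. Sema3a, a repulsive guidance cue, measured 4.57, 21.2 and 13.04 CPM in microglia and 42.2, 54.2 and 43.9 CPM in retina (log2 -1.85), and its receptor gene Nrp1 127, 73.1 and 161 CPM and 45.1, 46.9 and 42.4 CPM (1.43). Ndp, which encodes the vessel growth factor norrin, measured 0.179, 0.337 and 0.146 CPM against 3.39, 3.28 and 3.24 CPM (log2 -3.87), and its receptor gene Fzd4 34.9, 35.7 and 20.7 CPM against 3.82, 3.28 and 2.91 CPM (3.19). The remaining pair was Tgfb2 with Tgfbr2 (log2 8.36). The Sema3a call was lost without retina library 2 (adjusted p = 0.0611) and, as that of Nrp1, in the fit over all 14 libraries.

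In 3 pairs both genes were lower in microglia, namely Cxcl12 and Cxcr4, Vegfa and Kdr, and Dll1 and Notch1. Vegfa, the main growth factor of vessels, measured 22.1, 28.4 and 37.4 CPM in microglia and 52.2, 50.9 and 47.8 CPM in retina (log2 -0.78, adjusted p = 0.0357), a call lost without any 1 retina library (adjusted p up to 0.0935), at 5 CPM, with the replicate block and in the 14-library fit. Pdgfb was higher at 31.005, 35.8 and 21.1 CPM against 0.472, 0.481 and 0.291 CPM (log2 6.12), while its receptor gene Pdgfrb, a pericyte gene, was lower (-5.10). The calls of Dll1 (4.12, 27.4 and 2.77 CPM against 96.5, 89.1 and 88.5 CPM) and Notch1 (log2 -1.14) were lost with a gene length offset, and that of Dll1 without microglia library 1 (adjusted p = 0.0544). Cd200, a neuronal ligand that restrains microglia, measured 5.197, 8.76 and 0 CPM against 46.4, 43.3 and 42.03 CPM without being called (log2 -3.24, adjusted p = 0.0528), though it was called lower without microglia library 3 (adjusted p = 0.000716) and under 8 other settings. Over all growth and guidance factor genes, 2 of 27 were higher, Pdgfb and Spp1, and 15 were lower (8 without retina library 2 and 9 without 3), among them Mdk (log2 -6.60), Efnb1 (-5.11) and Ntn1 (-4.10). Over their receptors, 11 of 33 were higher and 13 were lower, beside 33.1% higher and 30.1% lower over all genes tested. The higher share thus does not stand apart from that of all genes. Among the higher were Il10ra (log2 8.96), Tnfrsf1b (8.38) and Tgfbr2, and among the lower the axon guidance receptor genes Robo2 (-3.51), Ephb1 (-3.68) and Ephb2 (-3.47).

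Cell cycle genes differed in both directions, and transcripts of dividing cells were present in embryonic microglia at levels of the same order as in the retina, a tissue rich in dividing progenitors. Of 40 tested, 6 were higher, 21 lower and 13 not called (median log2 -1.03), and the summed level was 6255 to 7303 CPM in microglia and 10926 to 11000.0 CPM in retina. Mki67, the marker of cycling cells, measured 1687, 1126 and 1539.7 CPM in microglia and 508, 616 and 522 CPM in retina (log2 fold change 1.40 ± 0.20 (SE), adjusted p = 0.00108), and Cenpe, a kinetochore motor, 343, 533 and 431 CPM and 142, 174 and 142 CPM (log2 1.52). Top2a, the topoisomerase of chromosome condensation, measured 711, 506 and 861 CPM and 1272, 1502 and 1244 CPM and was lower (log2 -0.95). Pcna, the replication clamp, was not called (252, 642 and 559.8 CPM against 345, 346 and 363 CPM, log2 0.46, adjusted p = 0.255), and was higher without microglia library 1 (adjusted p = 0.00462). Cenpf was higher by a small amount (log2 0.64), a call lost under 5 of 11 settings and without microglia library 3, retina library 1 or retina library 3.

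The D-type cyclin partners were unlike in the groups. Ccnd1, the cyclin of retinal progenitors, measured 328, 369 and 321 CPM in microglia and 3678, 3286 and 3732 CPM in retina (log2 fold change -3.39 ± 0.17 (SE), adjusted p = 1.24e-05), and Cdk4 was lower with it (log2 -3.23). Cdk6, the related kinase, measured 995, 1025 and 1149 CPM and 56.2, 59.2 and 53.3 CPM (log2 fold change 4.23 ± 0.16 (SE), adjusted p = 5.84e-06). Neither gene's groups overlapped, and the libraries within each group were close together. The inhibitor gene Cdkn1a, which encodes p21, was higher (log2 4.14) and Cdkn1c, which encodes p57, was lower (-5.53). The replication helicase genes Mcm2 (71.3, 28.6 and 29.4 CPM against 247, 228 and 246 CPM, log2 -2.48), Mcm6 (-2.07) and Mcm7 (-2.81) were lower, as were Cdk1 (-1.64), Ccnb1 (-1.70) and Cdc20 (-3.44).

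Replication-dependent histone genes, which are transcribed in S phase and whose messages end in a stem loop in place of a poly(A) tail, made up 4.06 ± 0.247% of all counts in retina and 0.0190 ± 0.00366% in microglia (mean ± SD, n = 3 libraries each). Of 67 tested, 63 were lower in microglia and 2 were higher, with a median log2 fold change of -9.40, or -9.30 with members at 0 counts set to their bound. Hist1h1c, a linker histone gene, measured 13.4, 18.6 and 13.04 CPM in microglia and 1706, 1513 and 1609 CPM in retina (log2 -6.74). In the same libraries, 6 of 40 cell cycle genes were higher than in retina, among them Mki67 and Cenpe. Another 21 were lower, among them the replication genes Mcm2, Mcm6 and Mcm7. The library method differs with the groups, and its part in this difference cannot be told apart from that of the cells.

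Transcripts of short nuclear genes of translation and respiration were lower in microglia, and those of the mitochondrial genome were higher. Cytosolic ribosomal protein genes took 0.885 ± 0.329% of counts in microglia and 3.54 ± 0.195% in retina, and of 81 tested, 54 were lower and 3 higher (Rpl10, Rpl12 and Rps27), with a median log2 fold change of -1.76. Of 93 nuclear genes of the respiratory chain, 67 were lower and 2 higher, Cox7c and Ndufaf7 (4 without microglia library 1, 1 without retina library 2 and 0 without retina library 1 or 3), with a median of -2.18. Of the 13 mitochondrially encoded genes, 12 were higher and mt-Nd3 was not called, with a median of 5.78, and their share of counts was 3.86 ± 1.18% against 0.291 ± 0.0586%. mt-Co1, a subunit of cytochrome oxidase, measured 11342, 22978 and 19361 CPM in microglia and 1433, 2004 and 1428 CPM in retina (log2 3.46), and mt-Nd4, a subunit of complex I, 3931, 8192 and 5925 CPM and 17.9, 20.9 and 14.2 CPM (8.41). Differences within the one mitochondrial genome thus ran from log2 0.56 for mt-Nd3 to 9.27 for mt-Nd4l, although its genes are transcribed as long precursors. Nuclear copies of mitochondrial sequence can share reads with these genes, so that their single values are uncertain.

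Over all genes, the difference moved with transcript length. The median log2 fold change was -1.46 for 869 genes under 1 kb, -0.63 for 2888 of 1 to 2 kb, -0.18 for 6063 of 2 to 4 kb, 0.28 for 4182 of 4 to 8 kb and 0.71 for 791 over 8 kb. The median transcript was 869 bases for the ribosomal protein genes and 921 for the nuclear respiratory genes, both in the shortest class, and their medians of -1.76 and -2.18 stand beside -1.46 for that class. The histone genes (median 526 bases) and the mitochondrial genes (784 bases) were as short, and stood far from the class in opposite directions. Library method moves together with the groups, and the part of length and of library method in these differences was not tested.

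Genes of glycolysis and of cholesterol synthesis were mostly lower in microglia. Of 22 glycolytic genes, 14 were lower and 3 higher (median log2 -1.28). Pkm, pyruvate kinase, measured 591, 407 and 496 CPM in microglia and 3272, 2788 and 2940.5 CPM in retina (log2 -2.59), and Eno1, enolase, 414, 386 and 429 CPM and 1947, 1584 and 1773 CPM (-2.11). The hexokinases differed in direction: Hk1 was lower (11.6, 10.96 and 2.91 CPM against 110.3, 81.2 and 98.5 CPM, log2 -3.51), and Hk2 (364, 464 and 337 CPM against 39.7, 44.5 and 41.2 CPM, log2 3.22) and Hk3 (47.8, 54.9 and 98.4 CPM against 0.214, 0.561 and 0.457 CPM, log2 7.32) were higher. The groups did not overlap for any of the 3. Gapdh was not called (764, 1004 and 1399 CPM against 1456, 1139.8 and 1247 CPM, log2 -0.28, adjusted p = 0.355), and was lower without microglia library 3 or with total counts. Ldhb, a lactate dehydrogenase chain, was the other higher gene (log2 1.28), a call lost without any 1 retina library (adjusted p up to 0.0655).

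Of 23 genes of cholesterol synthesis and transport, 14 were lower and 4 higher, and the 4 were all genes of transport and storage. Among the enzymes, Hmgcs1 measured 104, 76.9 and 103 CPM in microglia and 766, 896 and 926 CPM in retina (log2 -3.19). Fdps (log2 -4.78) and Mvd (-4.04) were lower by more. The sterol exporter gene Abca1 measured 1065, 745 and 882 CPM against 4.37, 3.92 and 4.36 CPM (log2 fold change 7.73 ± 0.24 (SE), adjusted p = 3.68e-06). Abcg1 (log2 1.42), another exporter, Apoe (3.33) and Soat1 (2.44), which esterifies cholesterol for storage, were higher with it.

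Immediate early and stress genes, which cells induce within minutes of stimulation or handling, were higher in microglia and their summed level differed between its libraries. Of 25 tested, 24 were higher and Jund was lower (median log2 5.71). Their summed level was 3714 to 21259 CPM in microglia and 659.5 to 671 CPM in retina, and their share of counts was 0.365, 1.48 and 1.70% in microglia libraries 1, 2 and 3 and 0.0760 to 0.0764% in retina. Egr1 measured 855, 7918 and 10178 CPM in microglia and 0.171, 0.441 and 0.249 CPM in retina (log2 14.38), and Fos 188, 372 and 446 CPM and 0.214, 0.2403 and 0.457 CPM (10.07). Zfp36, which speeds the decay of cytokine messages, measured 356, 2069.5 and 2876 CPM and 1.89, 1.68 and 1.33 CPM (log2 10.07). The first library was the lowest for all 3, and still lay above every retina library. Egr3 was at 46.95, 191 and 249 CPM against 0 counts in retina, at least 3921-fold higher. Jun (218, 791 and 801 CPM against 62.2, 50.8 and 61.3 CPM, log2 3.38) and Klf6 (478, 1216 and 1413 CPM against 92.9, 104 and 94.7 CPM, 3.41) had levels in retina as well, and followed the same order of microglia libraries. Jund measured 5.65, 45.3 and 20.6 CPM against 169.6, 163 and 158 CPM (log2 -2.78). Ier2 overlapped between the groups (11.02, 83.5 and 96.5 CPM against 16.8, 15.6 and 17.1 CPM), and its call (log2 1.95, adjusted p = 0.0462) was lost under 6 settings and without any 1 library other than microglia library 1. Cells were dissociated and sorted while retina was not, so that handling cannot be told apart from cell type here.

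**Figure D4:**
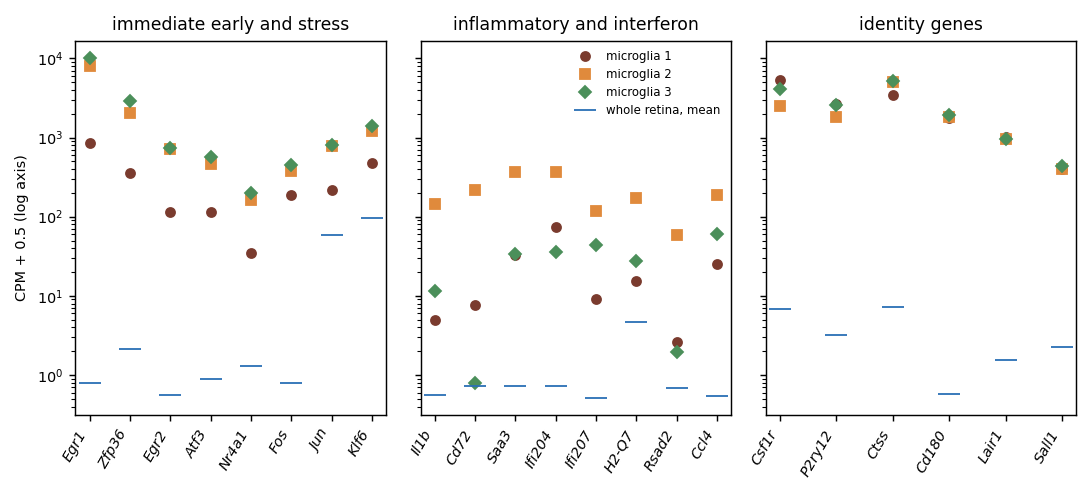
CPM + 0.5 on a log axis in microglia libraries 1, 2 and 3 and as the mean of the 3 retina libraries, for immediate early genes (left), inflammatory and interferon genes (middle) and identity genes (right). Immediate early genes are lowest in library 1, and several inflammatory genes stand out in library 2.

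The microglia libraries also differed from each other in ways that no label describes. Among the genes with the largest spread in microglia, Cd72 measured 7.17, 219.5 and 0.291 CPM, Saa3, an acute phase protein gene, 32.3, 364 and 33.3 CPM, H2-Q7, a class I gene, 14.8, 171 and 26.8 CPM, and Ifi204, an interferon-inducible gene, 73.3, 371 and 35.6 CPM. All 4 were highest in library 2, and in retina the highest value of any of them was 4.9003 CPM. Lars2, a mitochondrial leucyl-tRNA synthetase gene, had the largest spread in retina, at 11.8, 3193 and 175 CPM, and measured 2649, 1202 and 2199.6 CPM in microglia. It was not called (log2 0.84, adjusted p = 0.643), but was higher in microglia without retina library 2 (log2 4.35, adjusted p = 0.0284). The SD of log2 CPM over the microglia libraries was 4.08 for Cd72 and 2.52 for Il1b, and 0.544 for Csf1r and 0.0703 for Sall1, beside a median of 0.494 over genes with at least 10 CPM.

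Markers of other blood and immune cells that the sort could hold were read as whole lists. Of 10 border-associated macrophage markers, 6 were tested, of which 5 were higher (3 without retina library 3) and Ednrb was lower, with sums of 321 to 561 CPM in microglia and 53.2 to 67.7 CPM in retina. Mrc1, the mannose receptor, measured 50.1, 28.7 and 31.6 CPM in microglia and 0.343, 0.1201 and 0.125 CPM in retina (log2 7.51), most of the sum came from Stab1, and Lyve1 measured 26.3, 0 and 48.02 CPM in microglia, a call lost under 4 settings and without any 1 library other than microglia library 2. Of 10 monocyte markers, 4 were tested and 2 were higher, Ccr2 and F10, with sums of 62.5 to 122 CPM in microglia and 86.3 to 103 CPM in retina, ranges that overlap. Of 5 neutrophil markers in the data, 3 were tested and all were higher (log2 7.38 to 10.56). Their list summed to 319 to 447 CPM in microglia and 0.601 to 0.997 CPM in retina. The sum was led by Csf3r (321, 209.8 and 314 CPM) and Cxcr2 (121, 83.3 and 83.7 CPM), receptor genes that other myeloid cells also use. The remaining higher gene was Mpo, which encodes a granule protein, while the granule protein genes Ngp and Camp had too few counts to be tested. The defining markers S100a8, S100a9 and Ly6g were not among these 5. Of 9 lymphocyte markers, 5 were tested and 4 were higher, with sums of 50.1 to 93.4 CPM in microglia and 3.24 to 6.09 CPM in retina, led by Il7r (74.4, 37.6 and 49.2 CPM). The part of such cells in the microglial values was not tested.

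Red cell genes ran the other way. Hbb-bs, a beta globin gene, was at 0 counts in all 3 microglia libraries and at 169.8, 283 and 91.1 CPM in retina, at least 2219-fold lower, and Hbb-bt was at least 404-fold lower. Of 10 erythroid genes, 6 were tested and 5 were lower, and the sums were 0 to 6.54 CPM in microglia and 195 to 548 CPM in retina. Per the labels, red cells were lysed on the way to the sort, and no such step is given for whole retina.

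The genes of retinal progenitors and newborn neurons were lower in microglia, but not at 0. Of 17 progenitor genes, 16 were lower and Six3 was not called (median log2 -2.89), and their summed level was 627 to 680.0 CPM in microglia and 4547 to 4624 CPM in retina. Sox2, a factor of neural progenitors, measured 2.87, 3.29 and 1.17 CPM in microglia and 128, 134 and 123 CPM in retina (log2 fold change -5.72 ± 0.42 (SE), adjusted p = 5.82e-05), and Rax, an eye field factor, 7.89, 9.94 and 12.1 CPM and 249.5, 228 and 234 CPM (log2 -4.57). Every microglia library lay below every retina library for both genes. Over progenitor genes with at least 10 CPM in retina, the median level in microglia was 10.6, 11.3 and 10.9% of that in retina in libraries 1, 2 and 3, and for Dkk3, a secreted glycoprotein of the Dickkopf family, 177, 139 and 183 CPM against 1249.6, 1231 and 1216 CPM.

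Of 16 neurogenic fate genes, 14 were lower (median log2 -3.02), and the median level by library was 11.5, 11.5 and 7.96% of retina. Atoh7, which gives progenitors the competence for ganglion cell fate, measured 20.2, 5.31 and 7.43 CPM in microglia and 397, 539.6 and 513 CPM in retina (log2 -5.47), and the proneural gene Neurog2 5.74, 6.74 and 2.26 CPM and 139, 131 and 123 CPM (-4.74). Of 17 ganglion cell genes, 13 were lower (median log2 -3.39), at 9.97, 16.03 and 5.997% of retina by library. Pou4f2, a factor of ganglion cells, measured 5.65, 17.02 and 5.61 CPM and 46.5, 43.5 and 48.3 CPM (log2 -2.29), and Sncg, gamma-synuclein, 1.61, 1.43 and 0 CPM and 291, 288 and 328 CPM (-8.26). Sncg was at most 1.61 CPM in any microglia library, whereas the neurofilament gene Nefl stood at 35.7, 69.4 and 42.6 CPM against 611, 614 and 624 CPM (log2 -3.65), so that members of one cell type's list kept unlike shares of their retinal level. Of 20 axon and synapse genes, 17 were lower (median log2 -2.82), at 12.4, 11.3 and 8.02% by library, with Tubb3, neuronal tubulin, at 8.33, 2.36 and 8.02 CPM against 1486, 1422 and 1604 CPM (-7.91) and Vamp2, a vesicle fusion protein, as the 1 higher gene (2.19). Whether retinal RNA carried through the sort contributes to these levels was not tested.

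Genes of later-born or rarer retinal cells and of tissues around the retina gave mixed results. Of 14 amacrine and horizontal cell genes, 4 were lower (2 without any 1 retina library) and 2 higher (1 without retina library 2 or 3), of 13 photoreceptor genes, 5 were lower and 2 higher, and of 5 bipolar genes, 1 was higher. Crx, a photoreceptor factor, measured 12.6, 17.9 and 14.7 CPM in microglia and 135, 131 and 123 CPM in retina (log2 -3.10), and Calb2, calretinin, 0.0896, 1.85 and 0 CPM and 97.3, 87.7 and 76.99 CPM (-7.08). Prox1, a horizontal cell factor that other tissues share, was higher at 113, 176 and 100.3 CPM against 30.4, 23.2 and 26.04 CPM (log2 2.29). Of 7 genes of Mueller glia and astrocytes, 4 were lower and Kcnj10 was higher (log2 3.76; 2 genes were higher without microglia library 2), with Rlbp1 at 0 counts in microglia and at 13.8, 7.97 and 10.96 CPM in retina, at least 134-fold lower, and Fabp7 at log2 -5.15. The medians of the Mueller and photoreceptor lists moved with single libraries, from -4.25 to -0.88 without retina library 3, -0.97 without retina library 2, -1.43 without microglia library 2 and -2.19 without microglia library 3, and from -0.90 to -2.23 without microglia library 2. Of 8 endothelial genes, Cdh5 (log2 6.74), Pecam1 (4.92) and Tie1 (3.61) were higher and Kdr (-2.63) and Egfl7 lower. Of 7 pericyte and mesenchyme genes, 4 were lower and 1 higher (0 without retina library 2 or 3), of 9 pigment epithelium genes 2 each (1 lower without retina library 1 or 3), with Mitf (log2 4.33), a factor that macrophages also use, among the higher, and of 5 lens genes, 3 were higher, among them Cryba4 (6.81).

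Some of the genes highest in retina are uncertain, because short noncoding RNA genes overlap them. Ccnb1ip1 had the highest mean FPKM in retina among genes at least 8-fold lower in microglia, at 29516 ± 1882 FPKM, and measured 5952, 5848 and 5243 CPM in retina and 0.717, 0.337 and 0 CPM in microglia (log2 -14.03). It lies on GRCm38 at chr14:50789248-50807732, minus strand, and overlaps Rpph1, the RNA of RNase P, on the same strand at chr14:50807449-50807767. Ccdc107 (2494, 2268 and 2311 CPM in retina, 2.42, 23.8 and 20.04 CPM in microglia, log2 -7.25) lies at chr4:43492900-43495921, plus strand, and overlaps Rmrp, another ribozyme RNA, on the opposite strand, and Ncapd2 (log2 -4.41) holds Scarna10 on its own strand. These 3 RNA genes were not counted separately here, so that reads from them could be counted to the genes that overlap them. Such overlaps were searched only for the 10 genes of highest FPKM on each side past 8-fold. Among other genes high in retina, Tuba1a, a tubulin of growing neurons, measured 6076, 5936 and 6519 CPM in retina and 148, 277 and 271 CPM in microglia (log2 -4.73), Uchl1, a neuronal deubiquitinase, 251, 245 and 264 CPM and 3.32, 1.43 and 0.291 CPM (-7.26), and Pcbp4 305, 271 and 313 CPM and 2.42, 0.5899 and 0.0729 CPM (-8.22). Processed pseudogenes, which can share reads with their parent genes, were called about as often as other genes, with 335 of 979 higher and 349 lower.

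Whether the difference between microglia and whole retina at e16.5 was larger or smaller than at later ages was tested in a fit over all 14 libraries, in which whole retina has 1 library at postnatal day 7 (P7) and 1 at P60, each assumed to vary like the other groups. Against P7, 39 of 20484 genes were called (0.19%), with a larger difference, in the direction of microglia, at e16.5 for 35 and a smaller one for 4. Against P60, 545 were called (2.66%), 394 larger and 151 smaller. These counts depend on single libraries: without 1 library of e16.5 they ran from 1 to 23 against P7 and from 234 to 439 against P60, the lowest without retina library 3. The difference is signed, microglia minus retina, and a change can come from either tissue. Larger and smaller, here and below, refer to this signed value. For a gene below retina, a smaller value can thus be a wider gap.

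Igf1, which encodes insulin-like growth factor 1, measured 41.5 ± 15.4, 600.0 ± 248 and 14.5 ± 3.67 CPM in microglia at e16.5, P7 and P60 (mean ± SD, n = 3, scaled over 14 libraries) and 41.8 ± 2.19, 20.7 and 30.7 CPM in whole retina, with an SD only at e16.5. Its microglial level was highest at P7 and its retinal level lay between 20.7 and 41.8 CPM, and the difference at e16.5 was smaller than at P7 by log2 -4.87 ± 0.76 (SE, adjusted p = 0.0307), though it was called in only 2 of 6 fits that leave out a library of e16.5. Dock8, an activator of CDC42 in leukocytes, measured 530.0 ± 31.3, 404 ± 63.9 and 485 ± 91.9 CPM in microglia and 0.337 ± 0.104, 6.28 and 10.01 CPM in retina, and its difference was larger at e16.5 by log2 4.58 ± 0.40 (adjusted p = 0.0015), called in 6 of 6 such fits. Its microglial level was nearly constant, and its retinal level was lower at e16.5 than at later ages. Fos (4.61 ± 0.61, adjusted p = 0.0212) and Lpcat2 (3.34 ± 0.46, adjusted p = 0.0212) were called in 3 of 6 fits, with retinal levels that went from 0.351 to 25.5 CPM and from 3.43 to 41.6 CPM between e16.5 and P60. Aldh1a3, which makes retinoic acid, stood at 219 ± 22.1, 1.43 and 1.19 CPM in retina and 10.4 ± 5.26, 4.01 ± 1.84 and 7.94 ± 1.12 CPM in microglia. Its microglial level was thus below retina at e16.5 and above it at P7 and P60. The signed difference at e16.5 was below that at P7 by log2 -5.88 ± 0.89 (adjusted p = 0.0293, 2 of 6 fits).

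The background for the list counts against P60 is 545 of 20484 genes called (2.66%), 394 larger and 151 smaller. By list, the calls against P60 included all 13 mitochondrially encoded genes, with a larger signed difference at e16.5 (median log2 4.63). It was also larger for 7 of 25 immediate early genes (2.33) and 5 of 22 glycolytic genes (1.72). A smaller signed difference was called for 18 of 70 histone genes (median -5.02) and 11 of 40 cell cycle genes (-2.54). At e16.5 itself the median log2 fold changes were -9.40 for histone, -1.03 for cell cycle and -1.28 for glycolytic genes. For these 3 lists, smaller does not mean closer to retina, nor larger further from it. For homeostatic genes, 2 of 20 were called, both smaller, with a median of 0.13 over the list. Of the 24 genes of leukocyte cytoskeleton and adhesion, 5 were larger and 1 smaller against P60. As the retina at P60 is 1 library, differences of that library alone are part of each of these values.

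**Figure D5:**
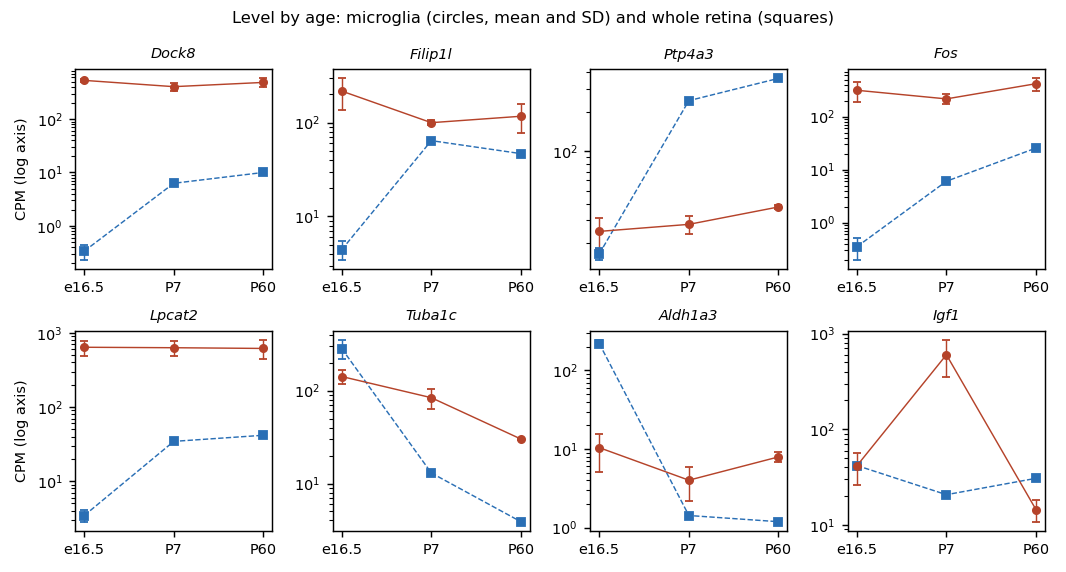
CPM on a log axis at e16.5, P7 and P60 for 8 genes, with microglia as mean ± SD of 3 libraries and whole retina as mean ± SD of 3 libraries at e16.5 and as single libraries at P7 and P60. Igf1 peaks at P7 in microglia, whereas Dock8, Fos and Lpcat2 are lowest in retina at e16.5.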

How the data were processed

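Whole-transcriptome RNA sequencing of 14 libraries was deposited as 1 table of 20902 genes, of which the 6 libraries of e16.5 were compared and the 8 of later ages entered only the 14-library fit. Transcripts were quantified with Salmon 0.9.1 and compared with DESeq2 1.20.0 on build GRCm38.p6, per the submitters' processing notes. The table holds estimated counts per gene that the authors deposited as whole numbers, and the same libraries as FPKM. It also holds the authors' deposited log2 fold changes and adjusted p-values for each comparison. Every gene in it reached a count of at least 10 in 1 library.

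Counts were tested with edgeR 4.0.16 (R 4.3.3; filterByExpr, TMM scaling, quasi-likelihood test) on the 6 libraries, with Benjamini-Hochberg adjustment over the 16140 genes kept and a threshold of 0.05. Every adjusted p in the text comes from this fit unless another is named, and log2 values are fitted fold changes, microglia minus retina, unless called levels. The code was tested on simulated data in which, unlike here, most genes were unchanged. It recovered 0 of 50 genes changed 2-fold, 18 of 50 at 4-fold, 26 of 50 at 8-fold and 38 of 50 at 16-fold, with 3 false calls. These recovery rates do not carry over to a comparison in which 63.2% of genes were called. A gene that was not called may still differ. Same-numbered libraries deviated from their group means with correlations of 0.012, 0.013 and -0.006. With 3 libraries a group and a wide spread between microglia libraries, these values cannot decide whether the numbers pair them. No label states a pairing, so none was used in the main fit. An exact test of 3 against 3 single values cannot give a p under 0.1 and was not used. A gene at 0 in a group was set against a floor of 3 counts over that group (0.0816 CPM in microglia, 0.0414 CPM in retina), which covers counting error only.

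The gene lists (43, with 644 of 686 listed genes in the table), the ligand and receptor pairs and the rule for named genes were chosen with earlier results of these data known. The rule took called genes whose groups did not overlap, with a log2 fold change of 1 or more in size and a mean of 10 CPM or more where they were higher. Of these it named the 10 highest by FPKM on each side past 8-fold, the 8 largest fold changes on each side among genes of at least 100 CPM and at least 0.5 CPM in the lower group, and up to 3 members per list and direction. It added all ligands and receptors, 12 anchor genes, the 8 and 4 most variable genes of each group at 50 CPM or more, and 5 genes per direction of the age contrast. Other genes named in the text were chosen after their values were seen. Gene positions are those of GENCODE vM21 (GRCm38), and promoters those of RefSeq on GRCm38.p6, where chromosome 18 was not analysed here. Alternatives were 11 other settings (scaling by DESeq2-style size factors, by total counts or without histone, ribosomal protein and mitochondrial genes, no filter, at least 5 CPM in 3 libraries, DESeq2 1.42.0, limma-voom and limma 3.58.1 on log2(FPKM + 0.1), a gene length offset, a replicate block, and the 14-library fit) and each of the 6 libraries left out in turn. Some genes that the rule named are not reported here.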

Additional observations from a re-analysis of the deposited data

Results flagged for a closer look

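The difference between microglia and whole retina changed with age, by a test of the change itself in the fit over 14 libraries (edgeR quasi-likelihood test), for 39 genes between e16.5 and P7 and for 545 genes between e16.5 and P60. At an unadjusted p under 0.05 there were 1919 and 3117 genes. The number against P7 rests on 1 retina library at P7, and it fell to 1 without retina library 3 of e16.5 and to 2 without retina library 2.

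Named genes whose difference, microglia minus retina, was larger at e16.5 than at P7 were Dock8 (log2 4.58 ± 0.40, adjusted p = 0.0015, called in 6 of 6 leave-one-out fits), Filip1l (4.97 ± 0.58, adjusted p = 0.016, called in 4 of 6 leave-one-out fits), Ptp4a3 (3.69 ± 0.46, adjusted p = 0.016, called in 3 of 6 leave-one-out fits), Fos (4.61 ± 0.61, adjusted p = 0.0212, called in 3 of 6 leave-one-out fits) and Lpcat2 (3.34 ± 0.46, adjusted p = 0.0212, called in 3 of 6 leave-one-out fits). Filip1l went from 217 to 99.9 CPM in microglia between e16.5 and P7 and from 4.44 to 64.3 CPM in retina, and Ptp4a3 from 24.6 to 27.8 CPM and from 16.6 to 243 CPM. The signed difference was smaller at e16.5 for Tuba1c (log2 -3.69 ± 0.53, adjusted p = 0.0218, called in 3 of 6 leave-one-out fits), Aldh1a3 (-5.88 ± 0.89, adjusted p = 0.0293, called in 2 of 6 leave-one-out fits) and Igf1 (-4.87 ± 0.76, adjusted p = 0.0307, called in 2 of 6 leave-one-out fits). The microglial levels of Tuba1c and Aldh1a3 were below retina at e16.5 and above it at P7. Tuba1c, an alpha tubulin gene, went from 142 to 83.9 CPM in microglia and from 283 to 12.99 CPM in retina.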

How the results depend on the processing

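The counts of genes called, higher and lower stayed within 1.5 times their values in all 11 settings and 6 leave-one-out fits: 7801 to 11318 genes were called in the settings and 8604 to 12088 with a library left out. The replicate block called 9475 genes, and 8212 or more of the 10206 genes called were called with the same sign whichever library was left out. Scaling by total counts moved the median of all genes by -0.38 on the log2 scale, and 44.5% of its calls were higher in microglia against 52.4%. Values in the text are relative to TMM scaling. DESeq2 called 420 genes in the age contrast against P7 (39) and 1404 against P60 (545), and with 1 library left out 1 to 23 and 234 to 439 were called.

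These signs turned, and the cause was not tested: at 5 CPM, where fewer members are tested, the list medians of monocyte (-0.0188), endothelial (-2.41), bipolar (from -0.31 to 2.18), amacrine and horizontal (from -0.27 to 0.42) and pigment epithelium markers (from -0.22 to 4.54); the last also with the replicate block (0.0290) and without retina library 1 (0.34); the median of mast cell and megakaryocyte markers without a filter (0.0857); Igf1 with total counts (-0.13), in the 14-library fit (-0.0107) and over the leave-one-out fits (-0.10 without microglia library 3 to 0.42); Igf1r (0.0779) and Ptch1 (0.0381) at 5 CPM; Pdgfa with limma on FPKM (-0.45) and over the leave-one-out fits (-0.27 without microglia library 2 to 1.21); Ptprz1 with the length offset (0.0393); and Cenpf with limma on FPKM (-0.0146). With the length offset and limma on FPKM, Apbb2 turned to 2.44 and 2.09 and Gas2l3 to -0.64 and -0.91. Over named genes, 4400 values kept direction and call, 90 lost and 33 gained a call, and 13 turned. Read depth limits genes near 1 CPM, and the spread between microglia libraries, with a median SD of 0.494 on the log2 scale against 0.0828 in retina, limits small differences.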

Other observations

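Genes at 10 CPM or more in one group and at 0 counts in all 3 libraries of the other numbered 36 for microglia and 56 for whole retina. Among markers of mast cells and megakaryocytes, 3 of 6 were tested, of which 1 was higher and 2 were lower. Snhg11, a long noncoding RNA host gene of neurons, was the only one of 14 listed long noncoding RNAs that was tested, and it was higher in microglia (log2 6.21). Of 89 unprocessed pseudogenes, 46 were higher in microglia and 23 were lower, and of 80 genes with no entry in the annotation, 49 were higher and 12 were lower. These classes can share reads with near-identical copies, and their values are given as counts only.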
